A study of Mus musculus with 14 samples.

Results

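Collagens are the main structural proteins of the extracellular matrix. Here 43 collagen genes were followed in samples labelled as lymphatic endothelial cells of mouse lymph nodes. The members were the non-control probes whose gene name is Col, a type number, the letter a and a chain number. These were 68 probes of 43 genes, among 55681 probes of 34797 gene names. For each gene the probe with the highest mean log2 signal was kept. The genes fall into 11 fibrillar collagens, 8 collagens of basement membranes and 24 others. All samples came from C57Bl/6 mice, and 4 groups were compared. Medullary FACS (n = 2) and subcapsular FACS (n = 2) samples held 1200 cells each, sorted by fluorescence from nodes digested with liberase and DNase. That sort used a lineage cocktail, anti-podoplanin, anti-CD73 and a dead-cell dye. Medullary LCM (n = 5) and subcapsular LCM (n = 5) samples consisted of 50 CD31-labelled cells each. They were dissected by laser (LCM, laser-capture microdissection) out of frozen sections that were also stained for F4/80, a macrophage antigen. The nodes differed between the isolations, with inguinal, axillary and brachial nodes used for LCM and a wider set for FACS. The labels call the replicates biological but do not tie samples to animals, so the p-values measure the spread between these samples only. All values below are log2 signals minus the 75th percentile of the array, so 0 is the signal that 75 percent of the non-control probes do not exceed.

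A collagen chain carries glycine at regular short intervals, which lets 3 chains wind into a triple helix. Fibrillar collagens assemble into the tension-bearing fibres of connective tissue, type IV collagens into the sheet-like network of basement membranes, and fibril-associated collagens decorate fibres without forming them. In lymph nodes, reticular fibres of fibrillar collagen wrapped by basement membrane material form conduits, and fibroblastic reticular cells are known as a main maker of them.

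The glycine repeat can be read in the array probes themselves, and 3 probes are shown because they carry the longest runs of it. Capitals mark glycine codons (GGN) spaced 9 bases apart, at least 5 in a row, and each probe is a 60-mer written 5′ to 3′ on the plus strand of mm9.
Col15a1, mm9 chr4:47283786-47283845: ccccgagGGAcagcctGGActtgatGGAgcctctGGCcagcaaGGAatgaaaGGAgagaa
Col16a1, mm9 chr4:129756457-129756516: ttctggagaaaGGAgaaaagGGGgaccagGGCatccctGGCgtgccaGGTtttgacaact
Col25a1, mm9 chr3:130270497-130270556: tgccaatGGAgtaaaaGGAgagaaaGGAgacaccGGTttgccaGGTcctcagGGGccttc
Such a run occurred in 3 of 68 collagen probes (4.41%) and in 20 of 55681 non-control probes (0.0359%). The Col15a1 and Col16a1 probes were those kept for their genes, and the Col25a1 probe was not. All 3 were above background on all 14 arrays.

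The arrays themselves differed in breadth. Between 73.9% and 82.6% of genes were well above background on medullary FACS arrays, 71.4% to 81.3% on subcapsular FACS arrays, 73.0% to 79.4% on medullary LCM arrays and 57.5% to 74.1% on subcapsular LCM arrays. The correlation between replicates over genes was 0.732 and 0.851 for the medullary and subcapsular FACS pairs, and 0.713 to 0.805 and 0.656 to 0.741 within the medullary and subcapsular LCM groups. The labelled cell type was checked against 8 lymphatic endothelial genes. Their summed linear signal, in units of the array's 75th percentile, was 1.21 to 1.79 on medullary FACS arrays, 16.6 to 39.4 on subcapsular FACS arrays, 17.4 to 45.0 on medullary LCM arrays and 7.04 to 115 on subcapsular LCM arrays. Pecam1, which codes for CD31, was the highest of the 8 on both subcapsular FACS arrays (log2 signal 3.97 and 5.27). The same held on all medullary LCM arrays (4.00 to 5.45) and on subcapsular LCM replicates 2 to 5 (3.38 to 6.83). On these arrays the sum mostly reflects Pecam1 and is no measure of the other listed genes. Lyve1, Mmrn1 and Cdh5 were above background on 0 of 2 medullary FACS arrays, and Flt4 on 0 of 2 subcapsular FACS arrays, whereas Prox1, the lymphatic master regulator, was above background on all 14. A list of 6 salivary gland genes summed to 138 to 484 and 874 to 881 on medullary and subcapsular FACS arrays, against 3.33 to 10.5 and 0.351 to 19.6 on medullary and subcapsular LCM arrays. The part of these signals in the results below was not tested.

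Detection was uneven among the collagen genes. On single arrays 53.5% to 74.4% of the collagens were above background, against 57.5% to 82.6% of all genes, and the collagen share was the lower one on every array but subcapsular LCM replicates 4 and 5. Of the 43 genes, 19 were well above background on all 14 arrays, 23 on some and 1, the cartilage collagen Col2a1, on none. Over all genes, 39.5% were above background on all 14 arrays and 2.03% on none. Among fibrillar collagens 3 of 11 were above background throughout, namely Col1a2 and Col3a1, which code for chains of type I and type III collagen, and Col11a2. Basement membrane collagens divided evenly, with Col4a2, Col4a4, Col4a6 and Col15a1 present on all 14 arrays and Col4a1, Col4a3, Col4a5 and Col18a1 on 2 to 5. The other collagens were above background on all arrays for 12 of 24 genes. The number of collagens above background on 1 array was 29 to 32 in medullary FACS samples, 25 to 31 in subcapsular FACS samples, 30 to 32 in medullary LCM samples and 23 to 32 in subcapsular LCM samples. These ranges overlap.

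**Figure D1:**
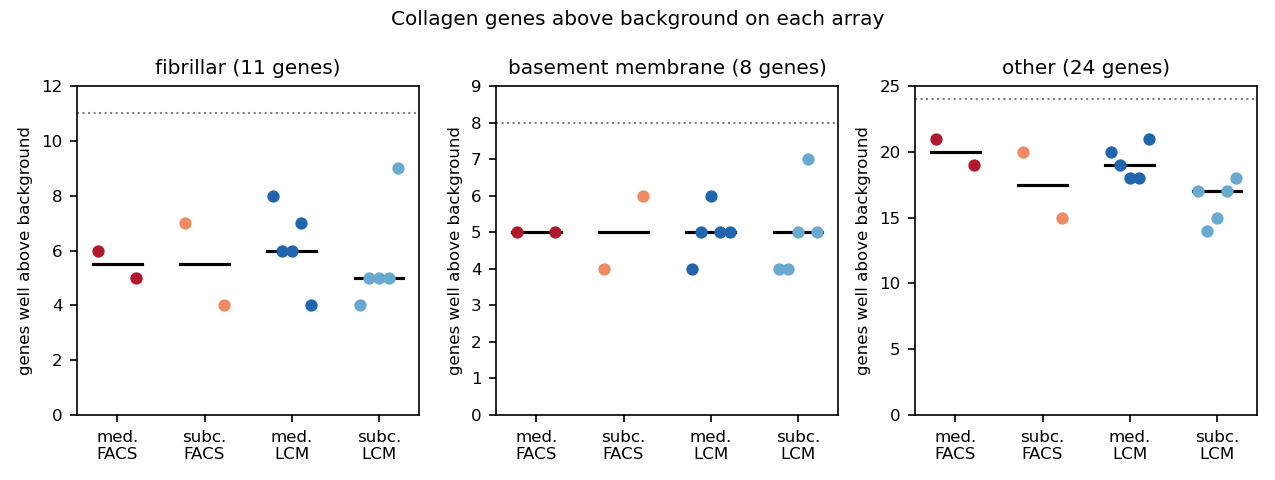
Number of collagen genes well above background (y axis) on each of the 14 arrays, by group (x axis; med., medullary; subc., subcapsular), for the 11 fibrillar, 8 basement membrane and 24 other collagens. Points are arrays, horizontal lines are group medians and the dotted line is the size of the class. The groups overlap in the fibrillar and basement membrane panels, where all arrays sit between 4 and 9 genes.

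Detection went with the base composition of the probe. Probes of the 19 collagens above background on all 14 arrays had a median GC content of 51.7%, those of the 7 collagens seen on 8 to 13 arrays 41.7%, and those of the 17 seen on 0 to 7 arrays 35.0%. Over all genes the same 3 medians were 45.0% (n = 13756), 43.3% (n = 11223) and 38.3% (n = 9818). The absence of a collagen from an array is therefore given as "not well above background" and not as absence of its RNA.

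**Figure D2:**
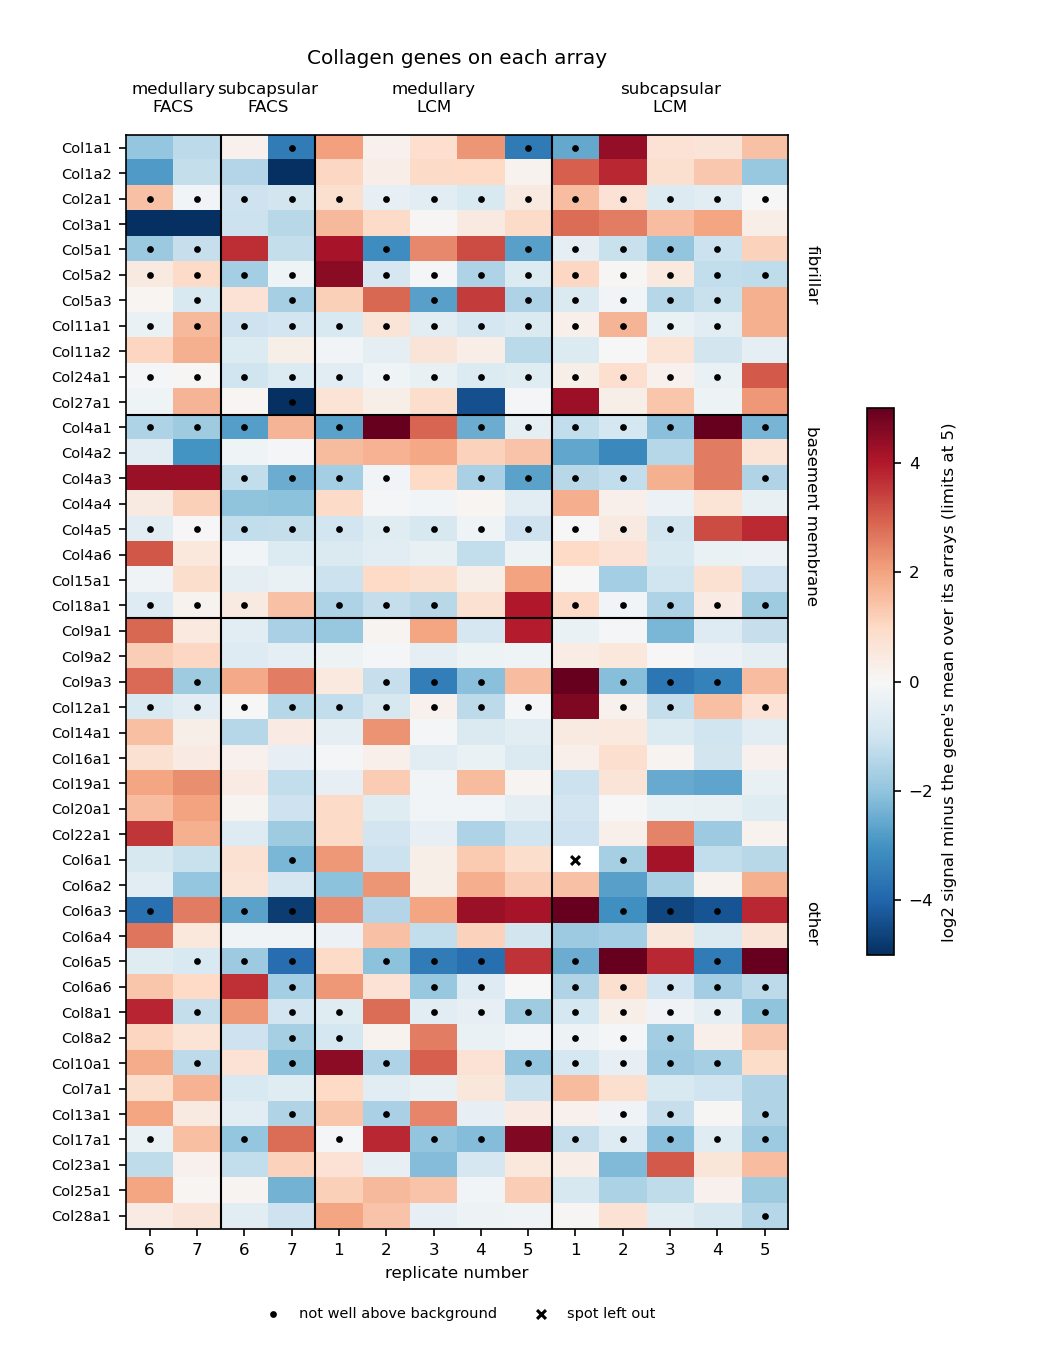
Signal of all 43 collagen genes (rows, by class) on the 14 arrays (columns, by group and replicate number), as log2 signal minus the gene's own mean over its arrays, with the colour scale limited at 5. Black dots mark values not well above background, and the cross marks 1 spot left out as an outlier. Col3a1 is dark blue in both medullary FACS columns and Col4a3 dark red in the same columns.

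The question of the isolation was whether sorted and microdissected cells of the same sinuses carried the same collagens. Both called genes were fibrillar and lower after sorting: Col3a1 and Col1a2. Across all genes tested, 3.86% were called (1147 of 29689 at an adjusted p under 0.05), with 1.83% higher and 2.04% lower in FACS samples, and 2 of the 33 collagens tested were called, 0 higher and 2 lower. Of the 11 fibrillar members 10 had a negative difference, with a class median of -0.57 on the log2 scale. Both figures include Col2a1, Col5a2, Col11a1 and Col24a1, which were not tested. Col2a1 was above background on 0 arrays and the other 3 on 1 array each, so their signs are not determined. The fibrillar median was negative under every scaling tried but 0.42 in medullary samples alone. The median was -0.45 for the basement membrane class, 0.31 for the others and 0.16 over all genes. Bulk samples of this kind cannot tell apart fewer cells of a type and less RNA per cell.

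Col3a1 codes for the single chain of type III collagen, a main component of reticular fibres. Its log2 signal was -2.53 and -2.62 in medullary FACS samples and 1.75 and 1.46 in subcapsular FACS samples. Medullary LCM samples had 4.43, 3.78, 2.89, 3.29 and 3.79, and subcapsular LCM samples had 5.62, 5.40, 4.35, 4.79 and 3.16. Every FACS sample lay below every LCM sample, and the 2 medullary FACS samples lay far below the 2 subcapsular ones. Group means were -2.58 ± 0.06 (SD, n = 2), 1.60 ± 0.21 (SD, n = 2), 3.64 ± 0.58 (SD, n = 5) and 4.66 ± 0.98 (SD, n = 5) in the same order. Col3a1 fell by 4.64 ± 0.44 (SE) on the log2 scale in FACS samples (limma, adjusted p = 3.97e-05). Of all genes tested, 0.556% were lower and 0.461% higher in FACS samples without overlap with LCM samples, and the tested collagens were Col3a1 among the lower and 0 among the higher ones. The difference was -6.21 ± 0.62 within the medullary samples (adjusted p = 7.42e-05, where 6.56% of all genes were called) and -3.06 ± 0.62 within the subcapsular samples (adjusted p = 0.034, where 1.15% were called). Slides and isolations overlap in the design except for medullary LCM replicates 4 and 5, which shared a slide with all FACS arrays. Within that slide the medullary difference was -6.12 with an adjusted p of 0.0887.

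Col1a2 codes for the alpha 2 chain of type I collagen, the chief tensile collagen. It measured -1.86 and -0.23 in medullary FACS samples, -0.48 and -4.09 in subcapsular FACS samples, 2.01, 1.28, 1.94, 1.95 and 1.16 in medullary LCM samples, and 3.96, 4.73, 1.75, 2.32 and -0.93 in subcapsular LCM samples. Subcapsular LCM replicate 5 overlapped the FACS samples, and the other LCM samples were above all of them. Col1a2 fell by 3.68 ± 0.86 (SE) in FACS samples (limma, adjusted p = 0.0314). The gene was called in neither sinus alone, with -2.71 within medullary samples (adjusted p = 0.207) and -4.65 within subcapsular samples (adjusted p = 0.103). The call was also lost within the medullary samples of 1 slide (-2.59, adjusted p = 0.231), without array weights (adjusted p = 0.0611) and with the slide as a block (adjusted p = 0.406). It was also lost when any 1 of 6 samples was left out, namely subcapsular LCM replicate 1 or 4, medullary LCM replicate 1 or 4, subcapsular FACS replicate 7 or medullary FACS replicate 6 (adjusted p from 0.0502 to 0.193, the highest without subcapsular FACS replicate 7).

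**Figure D3:**
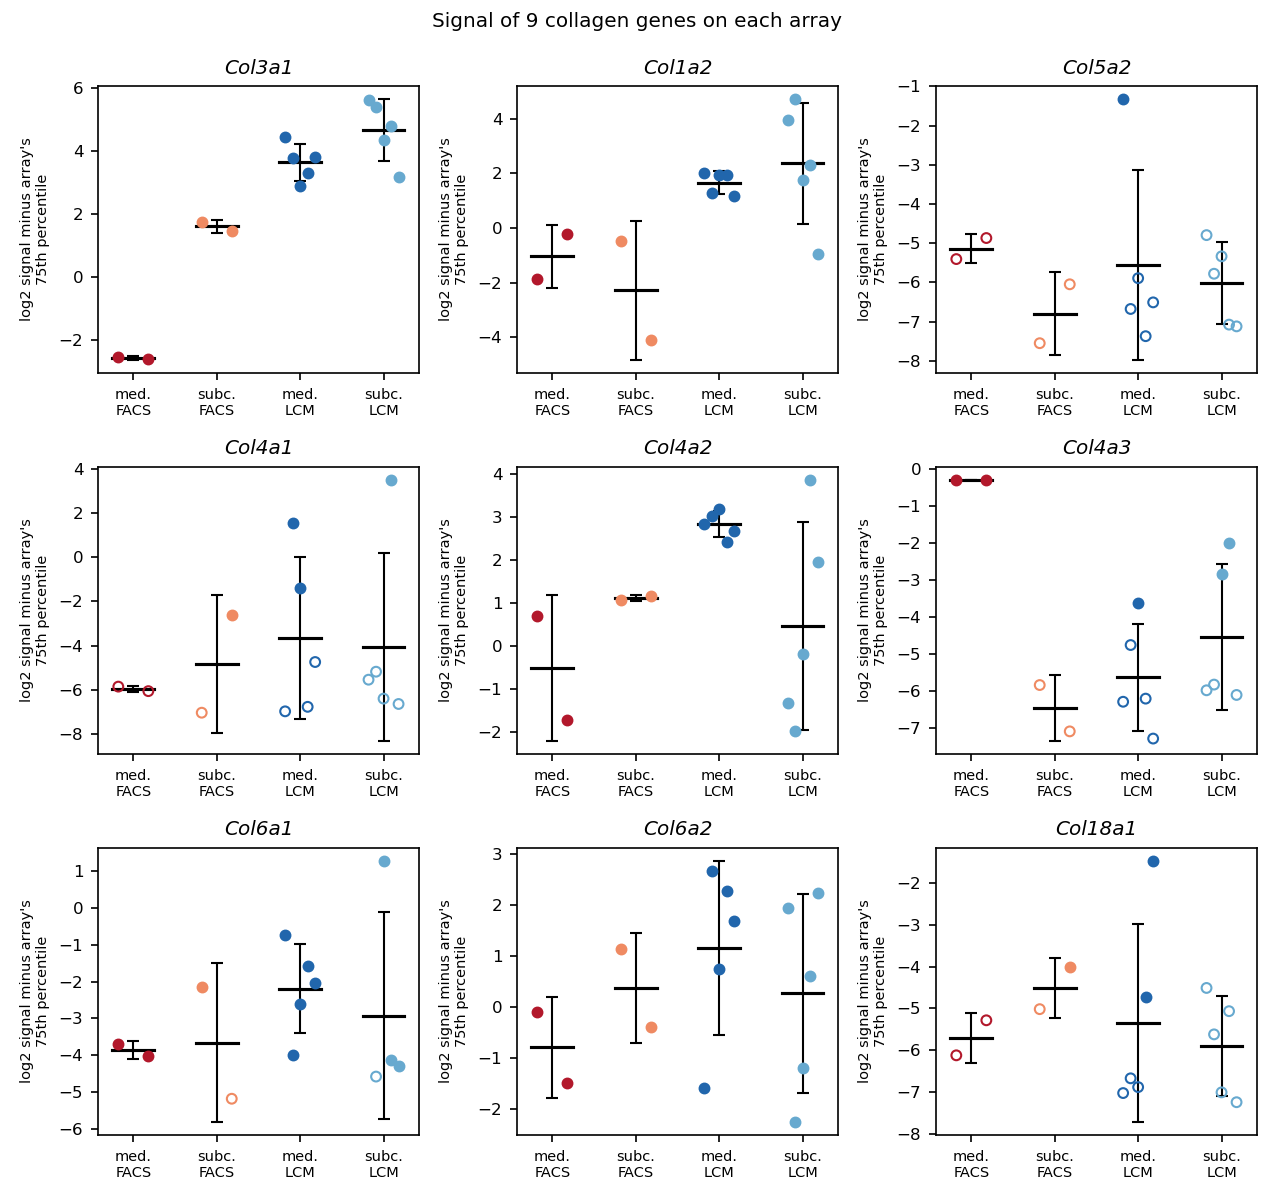
Log2 signal minus the array's 75th percentile (y axis) of 9 collagen genes on each array, by group (x axis; med., medullary; subc., subcapsular). Filled points are well above background and open points are not, horizontal lines are means and error bars are SD. Col3a1 sits at -2.53 and -2.62 in the medullary FACS samples and between 2.89 and 5.62 in the LCM samples, and Col4a3 is highest in the 2 medullary FACS samples.

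The promoters of these 2 fibrillar genes are shown because the genes were called together, as the 250 bases before the start of the gene in RefSeq (GRCm38.p6, plus strand). Capitals mark 3 motifs searched on both strands, the TATA box TATAAA, the CCAAT box spelled CCAAT, and the GC box spelled GGGCGG, which do not overlap here.
Col3a1, GRCm38.p6 chr1:45311288-45311537: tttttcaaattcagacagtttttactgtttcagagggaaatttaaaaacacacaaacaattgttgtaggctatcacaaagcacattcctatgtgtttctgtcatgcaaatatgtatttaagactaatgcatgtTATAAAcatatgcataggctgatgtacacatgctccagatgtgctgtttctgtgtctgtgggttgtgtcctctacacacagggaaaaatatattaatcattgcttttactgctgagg
Col1a2, GRCm38.p6 chr6:4505368-4505617: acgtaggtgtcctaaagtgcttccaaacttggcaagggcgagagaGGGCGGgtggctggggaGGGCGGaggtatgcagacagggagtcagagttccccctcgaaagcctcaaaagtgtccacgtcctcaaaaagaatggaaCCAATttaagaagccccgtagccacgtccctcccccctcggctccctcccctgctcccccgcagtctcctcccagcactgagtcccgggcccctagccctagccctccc
The Col3a1 window is 35.2% GC and held a TATA box at -117 from the start. The Col1a2 window is 62.0% GC and held a CCAAT box at -109 and a GC box at -205 and at -188. The 2 windows shared no motif of the 3. Of 32851 promoter windows of this length, 12.4% held the TATA box, 33.8% the CCAAT box and 32.7% the GC box, and the median GC content was 52.4%. Of the 38 windows matched to 35 collagen genes, 13.2% held the TATA box, 34.2% the CCAAT box and 57.9% the GC box. A match describes the letters only.

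The remaining fibrillar chains were not called between isolations. Col1a1, the partner of Col1a2 in type I collagen, had -4.15 and -3.52 in medullary FACS samples, -2.01 and -5.71 in subcapsular FACS samples, -0.17, -2.02, -1.39, -0.03 and -5.75 in medullary LCM samples, and -4.77, 2.18, -1.50, -1.57 and -0.75 in subcapsular LCM samples. Its difference between FACS and LCM was -2.27 ± 1.11 (SE, adjusted p = 0.348), and the groups overlapped. Col5a1, Col5a2 and Col5a3, chains of type V collagen, which regulates the start of fibre assembly, were above background on 6, 1 and 6 arrays. Col5a1 differed by -0.18 (adjusted p = 0.971). Col11a2 differed by 0.86 ± 0.44 (adjusted p = 0.365) and Col27a1 by -1.81 ± 1.24 (adjusted p = 0.535). Col11a1 and Col24a1 were each above background on 1 array, subcapsular LCM replicate 5.

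Among the beaded-filament collagens of type VI, which link cells to the surrounding matrix, Col6a3 stood at -6.31 and 0.03 in medullary FACS samples and at -5.24 and -7.32 in subcapsular FACS samples. In medullary LCM samples it read -0.19, -4.01, -0.61, 1.77 and 1.54, and in subcapsular LCM samples 2.86, -5.63, -7.11, -6.90 and 1.19. It was above background on 1 of 4 FACS arrays and on 7 of 10 LCM arrays. The difference was -3.00 ± 1.74 (adjusted p = 0.446). Its partners Col6a1 and Col6a2 differed by -1.20 ± 0.97 (adjusted p = 0.616) and -0.92 ± 0.83 (adjusted p = 0.663). Of the other 24 collagens, 14 had a positive and 10 a negative difference, and the lowest p was that of Col20a1, a fibril-associated collagen (0.93 ± 0.39, adjusted p = 0.258).

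Of 14 listed genes that bind collagen in the matrix, all tested, 4 were called lower and 0 higher in FACS samples. Over all genes tested, 2.04% were called lower and 1.83% higher. The difference was negative for 11 of the list and positive for 3, with a median log2 difference of -2.01 over the list against 0.16 over all genes. Within medullary samples 2 of the list were called lower, where 6.56% of all genes were called in either direction. Within subcapsular samples 0 were called, where 1.15% of all genes were. Sparc, a matrix protein that binds collagen and influences its deposition, measured -2.77 and -4.33 in medullary FACS samples, 0.35 and -0.10 in subcapsular FACS samples, 1.12 to 2.94 in medullary LCM samples and -0.34 to 3.02 in subcapsular LCM samples. It fell by 3.73 ± 0.58 (adjusted p = 0.0028). The medullary FACS samples were the lowest 2 of all samples. Sparc differed by -5.62 within medullary samples (adjusted p = 0.00132) and by -1.83 within subcapsular samples (adjusted p = 0.394). Tgfbi, an adhesion protein of the matrix, fell by 3.30 ± 0.70 over both sinuses (adjusted p = 0.0193), with -6.18 in medullary samples (adjusted p = 0.00283) and -0.42 in subcapsular samples (adjusted p = 0.888). Dcn, which codes for the fibril-binding proteoglycan decorin, fell by 3.06 ± 0.65 (adjusted p = 0.0198) and was called in neither sinus alone (-2.81, adjusted p = 0.0916 in medullary and -3.31, adjusted p = 0.131 in subcapsular samples). Postn, which codes for periostin, was above background on 0 of 4 FACS arrays and on 9 of 10 LCM arrays. It was at least 8.61-fold lower in FACS samples (adjusted p = 0.0124). Postn entered the test through its LCM signal only, and its p-value rests on FACS values below background. The other lists had 0 genes called in this comparison: 27 processing enzymes and chaperones, 5 cross-linking enzymes, 11 collagen receptors and 7 collagen-degrading proteases. Within them P4hb, a subunit of the prolyl hydroxylase that stabilises the helix, differed by -1.74 (adjusted p = 0.175), and Itgb1, the beta 1 integrin shared by collagen receptors, by -1.92 (adjusted p = 0.135).

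Of 9 listed markers of fibroblastic reticular and mesenchymal cells, 7 had a negative difference, with a median of -0.53 over the list. Dcn and Pdgfra (-5.59 ± 1.13, adjusted p = 0.0142) were called lower in FACS samples. Pdgfra was above background on 1 of 4 FACS arrays, medullary replicate 7, and on 9 of 10 LCM arrays. It thus entered the test through its LCM signal only, and the size of its difference is not well determined. The summed linear signal of the 9 markers was 6.74 to 26.4 in medullary FACS samples and 21.6 to 23.2 in subcapsular FACS samples, against 29.9 to 72.7 in medullary LCM samples and 54.3 to 160 in subcapsular LCM samples. Thy1 or Dcn was the highest of the 9 on every array, so the sum mostly follows these genes. In subcapsular FACS samples Thy1 was 4.06 and 3.79 and Dcn 2.40 and 2.56. Dcn, Lum and Fbln1 are also in the list of collagen-binding genes, so the lists are not independent. Il7 was above background on 0 of 14 arrays, and Pdgfrb on 0 of the 2 subcapsular FACS and 0 of the 5 subcapsular LCM arrays. Other cell type lists had lower medians, -2.19 for 8 lymphatic endothelial markers (2 called lower), -2.06 for 7 macrophage markers (2 called lower) and -1.68 for 7 blood and high endothelial venule markers (1 called lower). The last list had a median of -4.52 within medullary samples, with 4 called lower, and of 0.97 within subcapsular samples, with 1 called higher. Of all genes tested, 2.04% were called lower over both sinuses. Within medullary samples 6.56% were called in either direction, and within subcapsular samples 1.15%. Pecam1 (CD31), an endothelial gene and the antigen stained on the LCM sections, differed by -3.99 (adjusted p = 0.00654) over both sinuses. Its difference was -8.42 in medullary samples (adjusted p = 0.000286) and 0.44 in subcapsular samples (adjusted p = 0.881). The part of these cell types in the collagen differences was not tested.

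**Figure D4:**
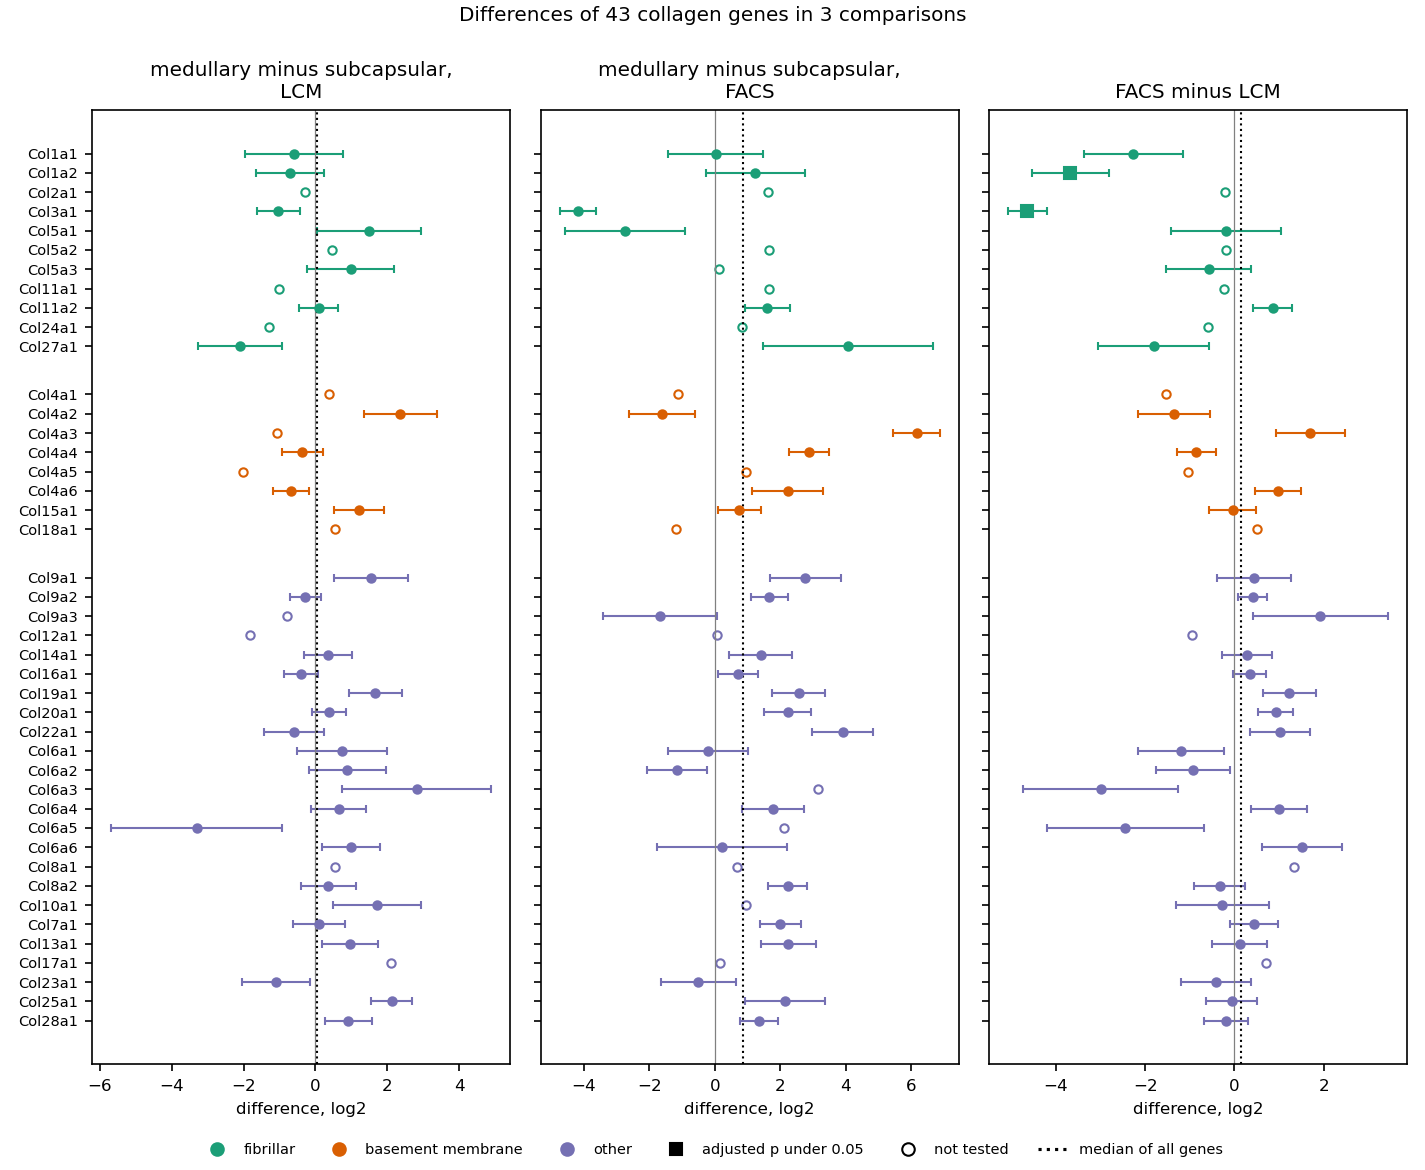
Log2 differences (x axis) of the 43 collagen genes (rows, coloured by class) between medullary and subcapsular samples in LCM, the same in FACS, and between FACS and LCM samples; error bars are SE. Squares have an adjusted p under 0.05, open circles were not tested, and the dotted line is the median of all genes. The only squares are Col1a2 and Col3a1, both below 0 between FACS and LCM.

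Between the sinuses in microdissected samples, 0 collagens passed the test. Of all genes, 0.175% were called (48 of 27380), 46 higher (0.168%) and 2 lower (0.0073%) in medullary samples, and 0 of the 31 collagens tested (limma, adjusted p under 0.05). Samples of the sinuses did not overlap for 1.03% (higher) and 2.06% (lower) of all genes, and for 0 collagens. At an unadjusted p under 0.05 there were 3 collagens, all with higher values in medullary samples, where 11.7% of all genes lay under that limit. The medians were -0.59 for the fibrillar class, 0.01 for the basement membrane class and 0.59 for the others, against 0.03 over all genes. With the percentile computed from well-detected probes alone, the median of all genes was 0.77 and the fibrillar median 0.14, so the sign of the fibrillar median depended on the scaling while it lay below the median of all genes in both. Blood and high endothelial venule markers were higher in medullary LCM samples (3 of 7 called, Fut7, Chst4 and Darc), with summed signals of 215 to 367 against 43 to 185 in subcapsular LCM samples. Macrophage markers summed to 19.1 to 50.1 in medullary LCM samples and 114 to 508 in subcapsular LCM samples. Their part in the values below was not tested. Array position also went with the sinus in LCM samples. Subcapsular replicates 1 to 4 lay in row 1 of slide 1. Subcapsular replicate 5 and medullary replicates 1 to 3 lay in row 2 of that slide, and medullary replicates 4 and 5 on slide 2. Replicate 5 had 74.1% of genes above background, and the other subcapsular arrays 57.5% to 65.6%. The sinus can therefore be told apart from array position only in part.

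Col25a1, which codes for a membrane-spanning collagen, had the lowest p of the collagens in this comparison. It read 1.03, 1.47, 1.26, -0.30 and 1.08 in medullary LCM samples and -0.99, -1.74, -1.43, 0.03 and -1.94 in subcapsular LCM samples, a difference of 2.12 ± 0.56 (adjusted p = 0.212). Medullary replicate 4 overlapped the subcapsular samples and the other 4 lay above them. The helix probe of Col25a1 shown above gave -0.14 ± 0.75 for the same difference, and the mean over the 4 probes of the gene gave 0.50.

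Col4a2, the alpha 2 chain of the ubiquitous type IV network, was 2.83, 3.01, 3.18, 2.41 and 2.67 in medullary LCM samples and -1.33, -1.97, -0.19, 3.85 and 1.93 in subcapsular LCM samples. The medullary values lay close together while the subcapsular ones spread widely, and subcapsular replicate 4 exceeded all medullary samples. The difference was 2.36 ± 1.01 (adjusted p = 0.409). Its partner Col4a1 passed background on 2 of 5 LCM arrays of the medulla and on 1 of 5 of the subcapsular sinus, and was not tested. That single subcapsular array was replicate 4, where Col4a1 reached 3.49 and the other 4 lay between -6.64 and -5.18.

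Fibrillar collagens overlapped between the sinuses in LCM samples. Col3a1 differed by -1.03 ± 0.59 (adjusted p = 0.524), Col1a2 by -0.70 (adjusted p = 0.815), Col1a1 by -0.59 ± 1.37 (adjusted p = 0.896) and Col27a1 by -2.10 ± 1.16 (adjusted p = 0.51). Col5a1 passed background on 3 of 5 medullary arrays and on 1 of 5 subcapsular arrays (1.48 ± 1.45, adjusted p = 0.742), and Col5a2 on 1 of 5 and 0 of 5. Col19a1, a fibril-associated collagen, was -2.01, -0.34, -1.75, -0.04 and -1.47 in medullary samples and -2.67, -0.95, -4.11, -4.22 and -1.98 in subcapsular samples. Its groups overlapped (1.67 ± 0.75, adjusted p = 0.423). Type VI genes differed by 0.74 ± 1.25 for Col6a1, 0.89 ± 1.07 for Col6a2 and 2.81 ± 2.08 for Col6a3, with adjusted p-values of 0.854, 0.79 and 0.641.

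The probe chosen for a gene mattered for Col15a1, which codes for a collagen with a central interrupted helix at the border of basement membrane and stroma. This gene was singled out after its values were seen. The helix probe kept for it read -2.42, -0.38, -0.58, -1.06 and 0.66 in medullary LCM samples and -1.36, -3.07, -2.36, -0.60 and -2.39 in subcapsular LCM samples (1.20 ± 0.71, adjusted p = 0.546 over all probes). The other 2 probes lie 41.4 kb downstream at mm9 chr4:47325273-47325332 and chr4:47325261-47325320 and share 48 bases, so they are not independent of each other. On these, medullary LCM samples had -0.30, -1.71, -2.26, -2.19 and 0.56 and then -0.60, -1.82, -3.32, -2.96 and -0.11, against -4.11, -3.78, -5.23, -4.10 and -4.08 and then -3.49, -5.42, -4.87, -4.20 and -5.24 in subcapsular LCM samples. On both, every medullary LCM sample lay above every subcapsular one, which held for 1.08% of 41273 probes tested separately. The first was not well above background in subcapsular LCM replicates 1, 2 and 3, and the second in replicates 2, 3 and 5. The differences on these probes thus rest in part on values below background. Of all probes tested separately 0.131% were called, and 0 of the collagen probes. The differences were 3.08 ± 0.68 and 2.88 ± 0.75, with adjusted p-values over all probes of 0.145 and 0.222.

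Sorted samples gave the opposite sign on the downstream probes. The probe at 47325273 read -3.00 and -3.59 in medullary FACS samples against -1.84 and -2.39 in subcapsular FACS samples, a difference of -1.18. That at 47325261 was not well above background on either medullary FACS array (-4.93 and -5.28) and read -2.66 and -2.80 in subcapsular FACS samples, so its difference of -2.37 rests on values below background. The FACS difference minus the LCM difference was -4.26 ± 1.04 (adjusted p = 0.0644) and -5.26 ± 1.13 (adjusted p = 0.0443) on these probes, where 1.15% of probes were called, and -0.45 ± 1.10 (adjusted p = 0.842) on the helix probe. The downstream probes were above background on 11 and 9 of the 14 arrays and are 35.0% and 28.3% GC, and the helix probe is 58.3% GC. Of the 18 collagen genes with more than 1 probe, all probes of the gene had the same sign for 10 in the LCM sinus comparison, 14 in the FACS sinus comparison and 9 between isolations.

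**Figure D5:**
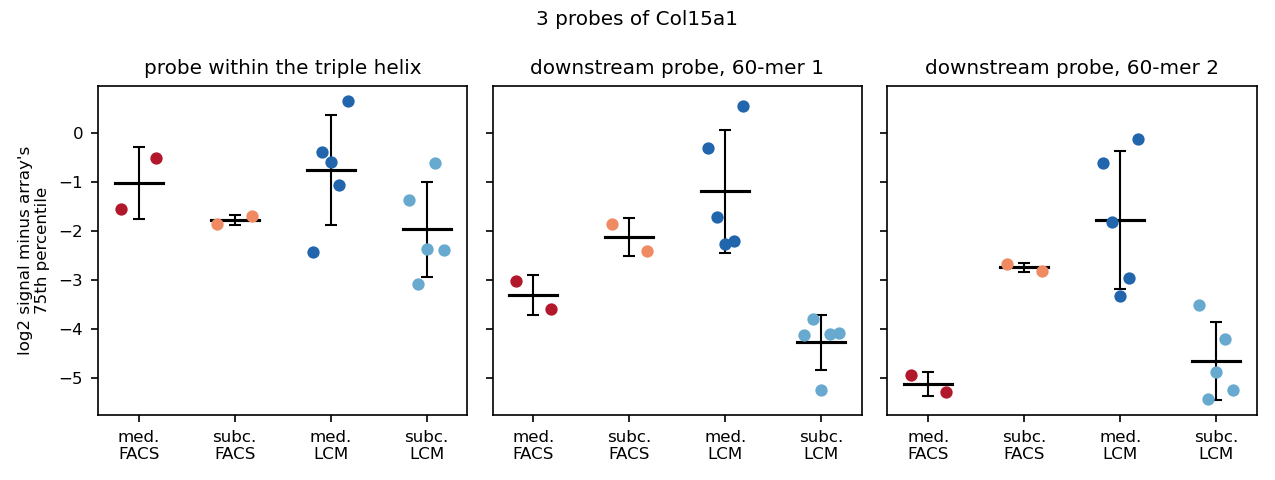
Log2 signal minus the array's 75th percentile (y axis) of the 3 probes of Col15a1 on each array, by group (x axis; med., medullary; subc., subcapsular), with means and SD; points not above background are drawn like the others. On both downstream probes the 5 medullary LCM samples lie above the 5 subcapsular LCM samples, and on the helix probe they overlap.

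In sorted samples the test of the sinuses called 0 genes, and so 0 collagens, at an adjusted p under 0.05. Of 27662 genes tested, 0% were called and 31.9% had an unadjusted p under 0.05. Of the 29 collagens tested, 9 had an unadjusted p under 0.05, with higher medullary values for 8 and a lower one for Col3a1. Between 2 and 2 samples, 43% of all genes were higher and 26.7% lower in medullary samples without overlap, and the tested collagens numbered 16 and 2. The median log2 difference was 0.86 over all genes, 1.24 for the fibrillar class, 0.85 for the basement membrane class and 1.53 for the others. Under quantile normalization the median of all genes was 0.36, so the size of every positive value below depends on that shift. In these 4 arrays the sinus cannot be told apart from the slide row.

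The 2 lowest p-values were those of Col4a3 and Col3a1, with opposite signs. Col4a3 codes for a chain of the specialised type IV network best known from kidney glomeruli. It was -0.30 and -0.31 in medullary FACS samples and not well above background in subcapsular FACS samples (-5.84 and -7.09). The gene entered the test through its medullary signal only and was at least 36.1-fold higher in medullary samples (6.16 ± 0.71 on the log2 scale, adjusted p = 0.0645). Col3a1 differed by -4.18 ± 0.56 (adjusted p = 0.0677). Both passed the threshold when all 14 arrays entered 1 fit (adjusted p = 0.0429 for Col4a3 and 0.0205 for Col3a1) and with a trended, robust variance (0.0419 and 0.0495). These 2 settings called 899 and 1813 genes in all, where the main fit called 0 of 27662. Passing under them was thus not particular to these 2 collagens.

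Col4a4, which lies head to head with Col4a3 on chromosome 1 of GRCm38.p6 with an overlap of 114 bases and codes for its partner chain, read 0.79 and 1.55 in medullary FACS samples and -1.68 and -1.72 in subcapsular FACS samples. The 2 groups did not overlap, and the difference was 2.87 ± 0.61 (adjusted p = 0.0982). Col4a6 was -0.10 and -2.68 in medullary against -3.34 and -3.88 in subcapsular FACS samples (2.22 ± 1.09, adjusted p = 0.223). The ubiquitous chain Col4a2 went the other way, with 0.69 and -1.71 in medullary and 1.06 and 1.15 in subcapsular FACS samples (-1.62 ± 1.02, adjusted p = 0.302). Col4a1 passed background on 0 of 2 medullary and on 1 of 2 subcapsular FACS arrays, as did Col18a1, whose protein yields endostatin. Col4a5 did so on 0 of 4 FACS arrays.

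Fibril-associated collagens supplied 4 of the 9 collagens with an unadjusted p under 0.05, out of 29 tested. Of all genes tested, 31.9% lay under that limit. Col22a1, known from tissue junctions such as that of muscle and tendon, measured 1.04 and -0.74 in medullary FACS samples and -3.19 and -4.33 in subcapsular FACS samples (3.90 ± 0.93, adjusted p = 0.108). Col19a1 measured 0.38 and 0.73 in medullary against -1.19 and -2.83 in subcapsular FACS samples (2.57 ± 0.81, adjusted p = 0.139). These differences, and those of Col20a1 (2.22 ± 0.72, adjusted p = 0.141) and Col9a2 (1.66 ± 0.56, adjusted p = 0.146), were positive and did not overlap between sinuses. The same held for 43% of all genes tested. Col8a2, a short-chain collagen, and Col7a1, the collagen of the anchoring fibrils under epithelia, differed by 2.22 ± 0.61 (adjusted p = 0.123) and 2.00 ± 0.63 (adjusted p = 0.139). Col9a1, the neighbour of Col19a1 on chromosome 1 with 4944 bases between them, differed by 2.76 ± 1.08 (adjusted p = 0.172). Col1a1, Col1a2 and Col5a1 overlapped between the sinuses, with differences of 0.02, 1.24 and -2.73.

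The medullary and subcapsular FACS samples also differed in genes that define the sort and the cell type. Nt5e, which codes for the sort antigen CD73, was -6.73 and -6.55 in medullary and 1.80 and 2.03 in subcapsular FACS samples. LCM samples ran the other way, with overlap between the sinuses. There Nt5e was -0.51, -0.49, -0.56, -2.53 and 1.55 in medullary and -6.15, -5.65, -7.09, -1.65 and -3.01 in subcapsular samples. Pecam1 was -3.36 and -3.83 in medullary and 3.97 and 5.27 in subcapsular FACS samples. The part of these in the collagen values was not tested.

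Whether the sinus difference itself differed between the isolations was tested with an interaction term (FACS difference minus LCM difference). Across all genes 1.3% were called (386 of 29689), and 1 of 33 collagens tested, Col4a3. At an unadjusted p under 0.05 there were 9 collagens, against 21.3% of all genes. The interaction of Col4a3 was 7.24 ± 1.54 (SE, limma, adjusted p = 0.0419). The gene entered the fit only through the 2 medullary FACS arrays, and its subcapsular FACS values were below background, so the size of the interaction is not well determined. In medullary LCM samples Col4a3 was above background on 1 of 5 arrays, at -3.62, with -6.29, -4.76, -6.21 and -7.29 on the others. Subcapsular LCM samples had -2.84 and -2.00 on 2 arrays and -5.98, -5.83 and -6.11 on the others. Within medullary samples Col4a3 rose by 5.32 ± 1.09 in FACS samples (adjusted p = 0.0117), and within subcapsular samples it differed by -1.91 ± 1.09 (adjusted p = 0.522). The interaction call was lost without array weights (adjusted p = 0.112), with the slide as a block (0.175), without a filter on dim probes (0.0604) and with the percentile of well-detected probes (0.0887). It was also lost without subcapsular LCM replicate 3, medullary LCM replicate 1, 2, 4 or 5, or subcapsular FACS replicate 6 or 7 (adjusted p from 0.0503 to 0.275, the highest without subcapsular FACS replicate 7).

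Col4a4 followed with 3.23 ± 0.86 (adjusted p = 0.0762), and it read 1.31, 0.23, 0.23, 0.45 and -0.17 in medullary LCM samples and 2.17, 0.61, 0.06, 1.05 and -0.03 in subcapsular LCM samples. The subcapsular FACS samples, at -1.68 and -1.72, were thus the lowest of its 14 values. Col3a1 had an interaction of -3.15 ± 0.88 (adjusted p = 0.087), which passed under quantile normalization (-4.93, adjusted p = 0.0059), in the deposited table (-4.71, adjusted p = 0.00954) and with the percentile of well-detected probes (-3.77, adjusted p = 0.0285). Col22a1 had 4.50 ± 1.33 (adjusted p = 0.101) and passed under normexp background correction (0.0444), quantile normalization (0.0353) and in the deposited table (0.0356). Calls over all genes also rose under these 3 settings, from 386 to 694, 1155 and 1143. Col4a2 differed in sign between the isolations, 2.36 in LCM and -1.62 in FACS, with an interaction of -3.98 ± 1.61 (adjusted p = 0.19). Col27a1 and Col4a6 had interactions of 6.17 ± 2.48 (adjusted p = 0.188) and 2.91 ± 1.01 (adjusted p = 0.143).

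Among the genes that process collagen, 1 of 25 tested was called in the interaction, where 1.3% of all genes were called. P4ha2, a catalytic subunit of the prolyl hydroxylase, was -1.23 and -1.48 in medullary FACS samples and not well above background in subcapsular FACS samples (-7.59 and -5.99) or in any medullary LCM sample (-7.28 to -6.25). Subcapsular LCM samples had -6.28, -5.77, -0.40, 0.96 and -0.58, with 3 of 5 above background. The interaction was 9.80 ± 2.04 (adjusted p = 0.0382), from differences of 5.44 in FACS (adjusted p = 0.0723) and -4.36 in LCM (adjusted p = 0.277). With the dim side of each at its bound, P4ha2 was at least 17.5-fold higher in medullary FACS samples and at least 7.21-fold lower in medullary LCM samples, so the fitted interaction exceeds what the detected signals fix. Its alternative subunit P4ha1 had the opposite pattern in FACS samples, at -6.72 and -6.46 and below background in medullary samples against -0.24 and -0.31 in subcapsular samples (adjusted p = 0.0645). The cross-linking, receptor, collagen-binding and protease lists had 0 genes called in the interaction, and all 5 lists had 0 called between the sinuses in LCM and in FACS samples. Of these, Itga10, a collagen-binding integrin, had an interaction of 4.67 ± 1.06 (adjusted p = 0.0516), and Gp6, the platelet collagen receptor, a FACS sinus difference of 5.02 ± 0.74 (adjusted p = 0.0726). In FACS samples the lowest p-values of the other lists were those of the cross-linking enzyme Loxl3 (4.19, adjusted p = 0.139), Tgfbi (-4.41, adjusted p = 0.072), Fbln1 (2.87, adjusted p = 0.0932) and the collagenase Mmp13 (1.96, adjusted p = 0.127). In LCM samples the lowest after P4ha2 were those of Adamts2, which trims procollagen (2.33, adjusted p = 0.359), Loxl2 (-1.18, adjusted p = 0.51), the integrin gene Itga2 (3.61, adjusted p = 0.392), Dcn (-1.31, adjusted p = 0.376) and Mmp8 (2.81, adjusted p = 0.467).

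The collagens not described above are given by their range. Col14a1, Col16a1, Col23a1 and Col6a4 were above background on all 14 arrays and Col28a1 on 13. Col9a3, Col13a1, Col6a5, Col6a6 and Col10a1 were seen on 6 to 9 arrays, and Col8a1, Col12a1 and Col17a1 on 2 to 4. Col6a5 stood at 5.38 in subcapsular LCM replicate 2 and ranged from -6.73 to 2.11 in the 4 other subcapsular LCM samples. Across isolations 3.37% of all probes were called. A second probe of Col6a4, above background on 3 of 4 FACS and 1 of 10 LCM arrays, differed by 4.00 (adjusted p = 0.02 over all probes). A second probe of Col19a1, above background on the 2 medullary FACS arrays only, had an interaction of 4.72 (adjusted p = 0.0416). Both second probes entered the fit only through the 2 medullary FACS arrays, where they were high. Their calls and sizes rest largely on values not well above background, so they are not well determined. The kept probes of these genes gave 0.99 (adjusted p = 0.498) and 0.90 (adjusted p = 0.702).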

How the data were processed

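Single-colour Cy3 Agilent arrays of 14 amplified RNA samples were read. Per the file headers, Feature Extraction 10.7.3.1 made the deposited intensity values (background-subtracted processed signals, mm9 grid), and per the labels RNA was amplified and labelled by an undisclosed SuperAmp protocol. The deposited log2 table of the same arrays served as an alternative only; its normalization is not given in the sources used here.

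Spots marked as outliers were left out (1725 values), spots of a probe averaged, log2 taken and each array's 75th percentile over non-control probes subtracted. One probe per gene was kept, that with the highest mean. Genes entered a test when well above background on 3 of 5 LCM arrays or both FACS arrays of a sinus. limma 3.58.1 (lmFit and eBayes, R 4.3.3) tested each contrast, with Benjamini-Hochberg adjustment over all genes tested and calls at 0.05. The 14-array fits weighted arrays by isolation (1.40 for FACS, 0.874 for LCM). A gene below background throughout a group was given a fold bound, from the lowest signal among probes well above background on each of its arrays, or its own signal where higher. Col6a1 lacks subcapsular LCM replicate 1, whose spot was an outlier. The tests were run on simulated data with 200 changed genes. FACS minus LCM made 7 false calls and the other comparisons 0, and the FACS sinus comparison recovered 0 of the changes. Of 50 changes of log2 size 4, the LCM sinus comparison recovered 7, the interaction 9 and FACS minus LCM 37. Of 50 changes of log2 size 2, these recovered 0, 0 and 13. A missing call between the sinuses is therefore no sign of equal signal. The simulation and the weights assume 1 factor of spread per isolation. Where spreads differ by isolation from gene to gene, the 14-array fits can make too many calls. Precision is limited by the number of arrays.

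Named genes were the main chains of types I, III, V, VI, IV, XV and XVIII, all called genes and, in each comparison and class, the 3 lowest p-values; pathway genes were those called, else the 2 lowest p-values. The members, gene lists and tests were chosen with earlier results of these data known. Deviations from the group mean correlated at -0.0202 to 0.0049 between samples with the same replicate number. Differently numbered LCM samples gave -0.0229 to 0.0335. With 2 FACS samples per group the deviations mirror each other, so their correlations have the same size. These values cannot show whether the numbers pair samples, and the main tests did not pair them. Coordinates of probes are those of the files; promoters and neighbours come from RefSeq tables, in which 43 of 43 collagens were matched.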

Additional observations from a re-analysis of the deposited data

Results flagged for a closer look

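Single arrays stood apart in 5 of 50 groups of collagen values tested with Dixon's ratio, where chance alone flags about 1 in 20. Col5a2 was -1.33 in medullary LCM replicate 1, where the next value was -5.89, and it was above background on no other array. Col27a1 was -3.49 in medullary LCM replicate 4, below the next value of 0.80. Col4a1 reached 3.49 in subcapsular LCM replicate 4, where the next value was -5.18. Col6a1 was 1.27 in subcapsular LCM replicate 3, where the next of the 4 values was -4.13. Col25a1 was -0.30 in medullary LCM replicate 4, below the next value of 1.03. The sinus difference of Col4a3 differed between FACS and LCM, with an interaction of 7.24.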

How the results depend on the processing

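Of 1890 values of single collagens under an alternative, 1763 kept their side of the threshold and, where not called, stayed within the spread between replicates. Of the others, 23 lost and 13 gained a call, 91 without a call moved further, and 0 reversed. Only values with a call could count as reversed, so the sign of an uncalled value could change unrecorded. Between FACS and LCM, for example, Col27a1 ranged from -4.89 to 3.00 and kept its sign under 10 of 13 alternatives without single-sample removal. Between sinuses in LCM, 0 collagens were called under every alternative run, and the 48 genes became 8 with normexp, 15 with quantile normalization, 225 with the percentile over detected probes, 16 in the deposited table, 104 with a stricter filter, 127 with the slide as a block, 248 on slide 1 alone and 14 with the slide row as a block. The replicate block gave 0 genes and 0 collagens in LCM and 0 in FACS. The main fits already called 0 collagens in both and 0 genes in FACS, so the block could take no collagen call away. It does not show whether same-numbered samples are paired. Leaving out 1 sample gave 23 to 104 genes in LCM and 0 in FACS, with 0 collagens in both; in FACS this leaves 1 sample in a group, assumed to vary like the other, and the 0 says nothing about stability. In FACS, a trended robust variance called 1813 genes and all 14 arrays in 1 fit 899, each with 2 collagens. Between FACS and LCM, the 1147 genes and 2 collagens became 747 and 1 without array weights, 184 and 1 with the slide as a block, 1949 in medullary samples, 341 and 1 in subcapsular samples, and 0 and 0 in medullary samples of slide 2, which leaves 4 arrays; leaving out 1 sample gave 613 to 1665 genes and 1 to 2 collagens. For the interaction, the 386 genes and 1 collagen became 694 and 2 with normexp, 1155 and 4 with quantile normalization, 1143 and 3 in the deposited table, 109 and 0 without weights and 48 and 0 with the slide as a block. Without the filter 0 collagens were called, with every probe tested separately (an alternative chosen after seeing the data) 3, and leaving out 1 sample gave 11 to 1278 genes and 0 to 2 collagens. Except where the alternative itself removes arrays, the cause was not tested. Collagens near background, such as Col4a1, Col5a2 and Col18a1, are limited by signal.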

Other observations

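Differences between sinuses are given here for 3 pairs of neighbouring collagen genes in GRCm38.p6. Col4a1 and Col4a2, head to head on chromosome 8, differed by 0.39 and 2.36 in LCM and by -1.13 and -1.62 in FACS, with Col4a1 above background on 3 of 10 LCM and 1 of 4 FACS arrays. Col3a1 and Col5a2, 24624 bases apart on chromosome 1, differed by -1.03 and 0.47 in LCM and by -4.18 and 1.66 in FACS, but Col5a2 was above background on 1 of 10 LCM and 0 of 4 FACS arrays, so its sign is not determined. Col6a1 and Col6a2, 85161 bases apart on chromosome 10, differed by 0.74 and 0.89 in LCM and by -0.20 and -1.17 in FACS. Cartilage also makes several of these collagens. Of 6 cartilage markers, 2 to 5 were above background on each array, and Sox9 on 0 of 14. Their summed linear signal was 1.12 to 1.20 in medullary FACS, 0.24 to 0.599 in subcapsular FACS, 0.327 to 13.3 in medullary LCM and 0.308 to 4.73 in subcapsular LCM samples.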
